A study of Mus musculus with 16 samples.

Results

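Hepatocyte identity rests on a small set of transcription factors, and 9 of their genes are described here across control liver, liver next to tumours and liver tumours: Hnf4a, Cebpa, Foxa1, Foxa2, Foxa3, Nr1i2, Nr1i3, Prox1 and Onecut1. They were taken by gene symbol from the platform annotation. Each of the 9 had 1 probe set, and together they are 9 of the 23279 genes measured. All mice were males aged 16 months. The deleted mice came from crossing a floxed Axin1 allele (Axin1 fl/fl) with Alfp-Cre, a transgene that drives Cre recombinase in hepatocytes of the embryo, and Axin1 encodes a scaffold protein that restrains Wnt signalling. Cells in which the transgene is silent keep the gene. The 3 control livers came from mice described only as not deleted (mice 10, 11 and 12), and the labels do not say which alleles they carried. Non-tumoral liver was taken from 5 tumour-bearing deleted mice (81, 121, 123, 124 and 1931), and 8 tumours from 6 deleted mice (81, 90, 93, 121, 123 and 124). Mouse 121 gave 3 tumours, an unnumbered one and those numbered 2 and 3, and 4 mice gave both tissues. No treatment is named for any group.

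The 9 factors bind the regulatory regions of liver genes and of one another. HNF4A, a nuclear receptor, and C/EBPalpha, a leucine zipper factor encoded by Cebpa, sustain metabolic and secretory genes of mature hepatocytes. FOXA1, FOXA2 and FOXA3 are forkhead factors that open chromatin ahead of other factors, and PROX1 and ONECUT1 (HNF6) act in the growth and fate of liver cells in the embryo and stay active in adult hepatocytes. PXR, encoded by Nr1i2, and CAR, encoded by Nr1i3, are receptors for drugs and other foreign compounds and switch on cytochrome P450 genes. Loss of such factors is a known feature of dedifferentiated liver tumours.

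All values are log2 expression values after RMA, a method that equalises probe intensities across arrays before they are summarised. The summarised values need not have equal distributions, and array medians lay between 4.37 and 4.50. Axin1 was lower in 13 of 13 arrays of deleted mice (3.90 to 4.81) than in any control (5.07 to 5.48). Which exons its probe set covers was not analysed here. Hepatocyte markers were bright in every group: the mean of 9 was between 12.01 and 12.10 in controls, 11.996 and 12.14 in adjacent livers and 11.40 and 12.07 in tumours. Such means lie close to the series maximum of 12.852, so they are a coarse check of hepatocyte content. By tumour, the markers below every control and adjacent liver ran from 0 of 9 in mouse 93 to 7 of 9 in mouse 81. Those above every liver ran from 0 in mouse 81 to 3 in mouse 90. Of the controls, mouse 10 stood apart. Its mean over 10 macrophage and neutrophil markers was 7.52, against 5.07 for the middle control, and it was the lowest control for 7 of the 9 factors. The part of those cells in the values of control 10 was not tested, and where leaving it out moved a factor's difference from control by over 1.5 times or turned it, that value is given. The samples are whole tissue, in which fewer hepatocytes and less RNA per hepatocyte cannot be told apart.

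The regulatory sequence just upstream of 4 of the genes is shown because the factors bind near one another's start sites and because Cebpa, Nr1i3 and Nr1i2 carry the tumour results below, while Hnf4a starts from separate promoters, the upstream one known from fetal liver and the downstream one from adult hepatocytes, that 1 probe set cannot distinguish. Each line is 200 bases, 5′ to 3′ on the gene's strand, from 250 to 51 bases before an annotated start, from RefSeq on build GRCm38.p6; all 9 genes matched, with 13 starts in all. Capitals mark a match to 1 of 5 short motifs searched on both strands.
Hnf4a, upstream start, chr2:163506607-163506806, plus strand: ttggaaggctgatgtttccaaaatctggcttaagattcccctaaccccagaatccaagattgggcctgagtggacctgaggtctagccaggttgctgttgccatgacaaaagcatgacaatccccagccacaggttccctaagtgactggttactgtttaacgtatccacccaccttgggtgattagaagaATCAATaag
Hnf4a, downstream start, chr2:163546905-163547104, plus strand: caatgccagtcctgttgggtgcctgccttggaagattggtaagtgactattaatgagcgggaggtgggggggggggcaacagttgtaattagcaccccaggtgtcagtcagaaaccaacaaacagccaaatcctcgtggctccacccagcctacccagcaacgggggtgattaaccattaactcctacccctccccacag
Cebpa, chr7:35119043-35119242, plus strand: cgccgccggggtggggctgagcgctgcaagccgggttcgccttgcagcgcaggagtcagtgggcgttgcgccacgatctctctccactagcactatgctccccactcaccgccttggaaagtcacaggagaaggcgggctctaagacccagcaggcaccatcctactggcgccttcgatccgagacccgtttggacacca
Nr1i3, chr1:171213720-171213919, plus strand: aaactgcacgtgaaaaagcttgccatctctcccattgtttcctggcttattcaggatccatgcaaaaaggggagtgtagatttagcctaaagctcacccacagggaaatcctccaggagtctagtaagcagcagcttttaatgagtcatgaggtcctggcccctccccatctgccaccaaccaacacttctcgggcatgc
Nr1i2, chr16:38294875-38295074, minus strand: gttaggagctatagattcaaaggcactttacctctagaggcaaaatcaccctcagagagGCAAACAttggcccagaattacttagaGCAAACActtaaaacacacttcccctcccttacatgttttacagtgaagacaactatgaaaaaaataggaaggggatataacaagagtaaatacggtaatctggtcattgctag

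The forkhead motif (TGTTTAC or TGTTTGC) was found in 3 of the 13 windows, those of Nr1i2, Foxa1 and 1 start of Prox1, and in 5.98% of all 32851 promoter windows of that length. In Nr1i2 it occurred 2 times on the strand opposite the gene, beginning at -191 and -164 from the start. The ONECUT motif (ATCAAT or ATCGAT) was found at -59 of the upstream Hnf4a start and in 1 Foxa2 window, that is in 2 of 13, against 6.38% of all windows. A C/EBP motif (TTGCGCA or TTGTGCA or TTGCACA) was found in 1 Prox1 window, against 5.19%. The HNF4A motif (CAAAGTC or CAAAGGT, against 5.89%) and the core motif of nuclear receptors (AGGTCA, against 11.4%), which can share letters with CAAAGGT, were found in 0 of 13. These matches describe letters in a short window, and several windows belong to the same gene.

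None of the 9 factors passed the threshold in any of the 3 comparisons. Between tumour and adjacent liver 8 of the 9 had a lower mean in tumours, against 56.0% of all genes, with a median log2 difference of -0.41 over the 9 and -0.03 over all genes. In limma, with p-values adjusted over all 23279 genes, 0 of 9 had an adjusted p under 0.05, where 0.155% of all genes did. At an unadjusted p under 0.05, 2 of 9 were lower, Cebpa and Foxa2, where 8.32% of all genes were lower by that rule and 15.3% differed in either direction. Tumours and adjacent livers overlapped for all 9; the groups did not overlap for 2.23% of all genes. Foxa3 was the member with a higher mean in tumours. Where a p missed the threshold, the 95% interval of the difference is given, since a missed threshold does not show equal levels.

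**Figure D1:**
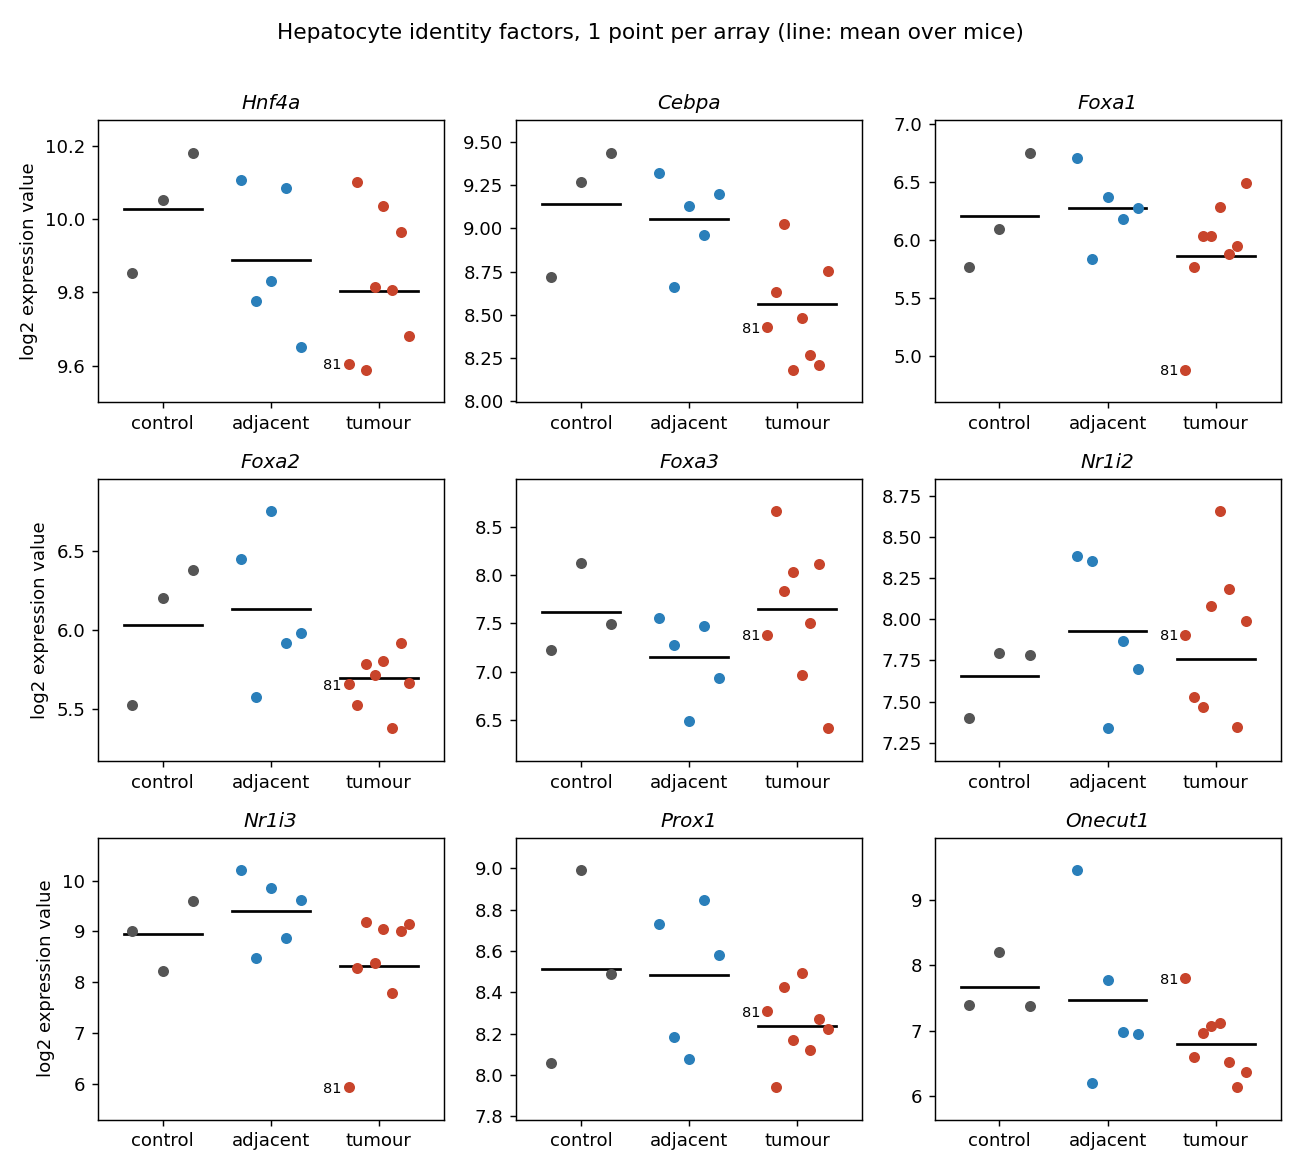
Log2 expression values of the 9 factors on the 16 arrays, by group (control, adjacent liver, tumour), 1 point per array; the horizontal line is the mean over mice, with the 3 tumours of mouse 121 averaged first, and the tumour of mouse 81 is marked. Tumour values of Cebpa lie largely below the livers, and the tumour of mouse 81 is far below all other arrays for Nr1i3 (5.93) and Foxa1 (4.88).

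**Figure D2:**
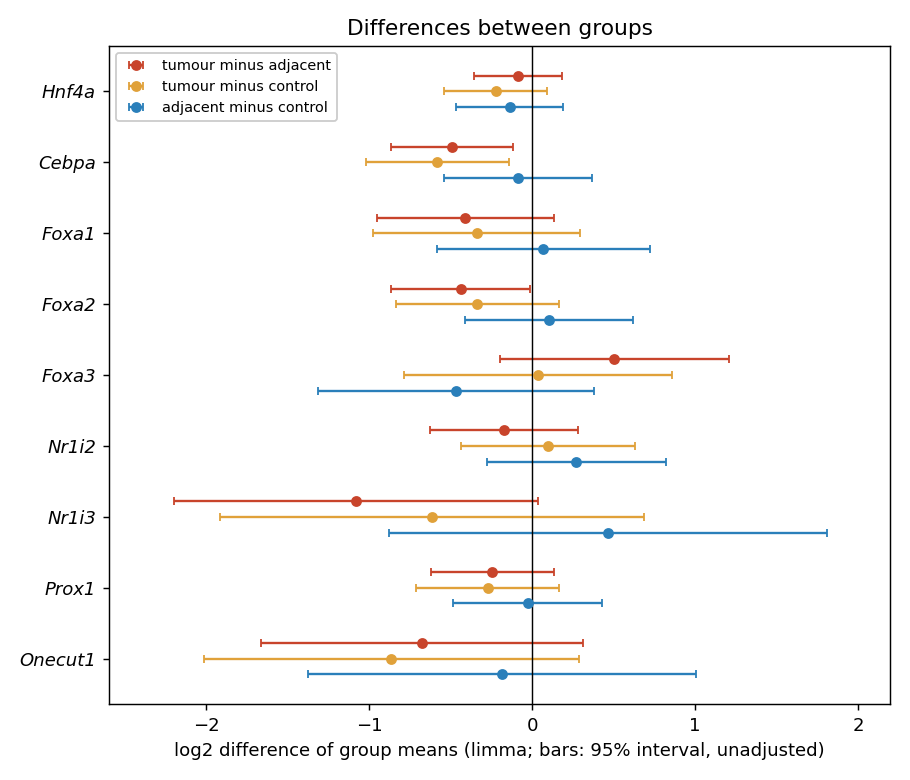
Log2 difference of group means for each factor in 3 comparisons (points, limma) with unadjusted 95% intervals (bars); the vertical line marks no difference. The interval of tumour minus adjacent liver lies below 0 for Cebpa and Foxa2 and is widest for Nr1i3 and Onecut1.

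Hnf4a, the nuclear receptor that ties the network together, stayed near its liver level in every tumour. It read 9.85, 10.05 and 10.18 in the controls, and 10.11, 9.78, 9.83, 10.08 and 9.65 in adjacent livers of mice 81, 121, 123, 124 and 1931. Tumours of mice 81, 90, 93, 123 and 124 read 9.61, 10.10, 9.59, 9.97 and 9.68, and the 3 of mouse 121 (unnumbered, 2 and 3) read 9.82, 10.03 and 9.81. The groups overlapped throughout, and 2 of 8 tumour arrays, those of mice 81 and 93, lay just below the lowest liver array (9.65). The log2 difference between tumour and adjacent liver was -0.08 (SE 0.13, 95% interval -0.36 to 0.19, adjusted p = 0.803), an interval that leaves out a change of 1 log2 unit in either direction. With each mouse left out it ran from -0.14 to -0.03. Against control it was -0.22 (SE 0.15, 95% interval -0.54 to 0.09, adjusted p = 0.568), and -0.15 without control 12. The probe set gives 1 value for transcripts from both promoters shown above, so a switch between them would not be seen.

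Cebpa, the factor that holds hepatocytes in a resting, metabolic state, was lower in most tumours. Controls read 8.72, 9.27 and 9.44, and adjacent livers of mice 81, 121, 123, 124 and 1931 read 9.32, 8.66, 9.13, 8.96 and 9.20. Tumours read 8.43 (mouse 81), 8.63 (90), 9.02 (93), 8.21 (123) and 8.76 (124), and those of mouse 121 read 8.18, 8.48 and 8.27. Thus 6 of 8 tumour arrays, from 4 of 6 mice, lay below the lowest liver array (8.66), a count that 2.69% of all genes reached. The mean was 8.56 ± 0.30 in tumours (SD, n = 6), where adjacent liver had 9.05 ± 0.26 (SD, n = 5). Controls had 9.14 ± 0.38 (SD, n = 3). The difference from adjacent liver was -0.49 (SE 0.18, 95% interval -0.87 to -0.12), with limma adjusted p = 0.188. Every tumour mouse lay below the adjacent mean (6 of 6), which was also so for Foxa2, Nr1i3 and Prox1. The share of all genes with that count was not analysed here. From control the difference of Cebpa was -0.58 (SE 0.20, 95% interval -1.02 to -0.14, limma adjusted p = 0.253), and -0.79 (limma adjusted p = 0.147) without control 10. Across the alternative fits the adjusted p of Cebpa against adjacent liver ran from 0.0741 to 0.353. In the 4 mice with both tissues the tumour was lower in 4 of 4, by amounts from 0.21 to 0.92, with paired differences of -0.89 (mouse 81), -0.35 (121), -0.92 (123) and -0.21 (124).

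Of the forkhead factors, Foxa1 and Foxa2 had lower means in tumours than in adjacent liver and Foxa3 a higher one, none past the threshold. Foxa1 read 5.77, 6.09 and 6.75 in controls and between 5.84 and 6.71 in adjacent livers. In tumours it read 4.88 in mouse 81 and between 5.77 and 6.49 on the other 7 arrays. The mouse 81 tumour was therefore alone far below the livers, and the tumour of mouse 90 (5.77) lay at their lower edge. The difference from adjacent liver was -0.41 (SE 0.25, 95% interval -0.95 to 0.13, adjusted p = 0.480), and -0.21 (adjusted p = 0.676) without the tumour of mouse 81. From control it was -0.34 (SE 0.30), -0.56 without control 10 and -0.07 without control 12.

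Foxa2, the paralog that also acts in glucose and bile acid metabolism, was narrow in tumours and wide in liver. Controls read 5.52, 6.20 and 6.38, and adjacent livers of mice 81, 121, 123, 124 and 1931 read 6.45, 5.57, 6.75, 5.92 and 5.98. Tumour arrays lay between 5.38 and 5.92, and all but tumour 3 of mouse 121 were inside the range of the livers. The SD over tumour mice was 0.14 (n = 6), against 0.47 (n = 5) in adjacent liver, a ratio of 0.29 where the median gene had 1.15. The difference from adjacent liver was -0.44 (SE 0.20, 95% interval -0.87 to -0.01, adjusted p = 0.314), and -0.28 without adjacent liver 123. From control it was -0.34 (SE 0.23), -0.59 without control 10 and -0.17 without control 12.

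Foxa3, the paralog most tied to glucose transport and fasting genes in adult liver, spread over more than 2 log2 units among tumours. Controls read 7.23, 8.12 and 7.49, and adjacent livers read 7.56, 7.28, 6.49, 7.47 and 6.93 in mice 81, 121, 123, 124 and 1931. The tumour of mouse 90 was the highest array of all at 8.66 and that of mouse 124 the lowest at 6.41. Tumours of mice 123, 93 and 81 read 8.11, 7.84 and 7.38, and those of mouse 121 read 8.04, 6.97 and 7.50. The difference from adjacent liver was 0.50 (SE 0.33, 95% interval -0.20 to 1.21, adjusted p = 0.508), or 0.30 without the tumour of mouse 90. The difference from control was 0.04 (SE 0.38, 95% interval -0.78 to 0.86), and without control 10 it was -0.16.

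Nr1i3, which encodes CAR, had the largest mean difference of the 9 between tumour and adjacent liver. Controls read 9.01, 8.22 and 9.60, and adjacent livers of mice 81, 121, 123, 124 and 1931 read 10.21, 8.48, 9.86, 8.86 and 9.62. Tumours read 5.93 (mouse 81), 8.28 (90), 9.19 (93), 9.00 (123) and 9.15 (124), and those of mouse 121 read 8.37, 9.04 and 7.78. The tumour of mouse 81 lay more than 2 log2 units below any liver, tumour 3 of mouse 121 was also below the lowest liver (8.22), and the other 6 tumours were within the liver range. The mean was 8.32 ± 1.24 in tumours (SD, n = 6), where adjacent liver had 9.41 ± 0.71 (SD, n = 5). The difference was -1.08 (SE 0.52, 95% interval -2.20 to 0.03, adjusted p = 0.344), and -0.60 (SE 0.34, adjusted p = 0.444) without the tumour of mouse 81, when that of Onecut1 was larger, at -0.88. Against control, where Onecut1 had a larger difference (-0.86), it was -0.62 (SE 0.61), -0.14 without that tumour and -0.98 without control 11. Mouse 81 also gave the highest adjacent liver, so its own tumour was 4.28 log2 units lower, whereas the paired differences were -0.09, -0.86 and 0.29 in mice 121, 123 and 124.

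Nr1i2, which encodes PXR, did not follow Nr1i3. It read 7.40, 7.80 and 7.78 in controls and between 7.34 and 8.39 in adjacent livers. Tumours of mice 81, 90, 93, 123 and 124 read 7.91, 7.53, 7.47, 7.35 and 7.99, and those of mouse 121 read 8.08, 8.66 and 8.19. Tumour 2 of mouse 121 was the array with the highest value, above all 8 livers, and no tumour was below them. The difference from adjacent liver was -0.17 (SE 0.21, 95% interval -0.63 to 0.28, adjusted p = 0.756). From control it was 0.10 (SE 0.25), and -0.0311 without control 10. The interval against adjacent liver leaves out a change of 1 log2 unit, and with each mouse left out the difference ran from -0.32 to -0.06.

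Prox1, a homeobox factor that restrains bile acid synthesis and is also active in lymphatic endothelium, was close to its liver level in tumours. Tumour arrays lay between 7.94 (mouse 90) and 8.50 (tumour 2 of mouse 121), adjacent livers between 8.08 and 8.85, and controls at 8.06, 8.99 and 8.49. With the tumours of mouse 121 averaged, 6 of 6 tumour mice lay below the adjacent mean. Only the mouse 90 tumour was below all livers, and the difference from adjacent liver was -0.25 (SE 0.18, 95% interval -0.62 to 0.13, adjusted p = 0.557), or -0.16 without adjacent liver 124. From control it was -0.27 (SE 0.21, 95% interval -0.72 to 0.17), but -0.50 without control 10 and -0.04 without control 11. The mean of 5 lymphatic endothelial markers lay between 4.36 and 5.12 in tumours and between 4.47 and 5.01 in adjacent livers, with a median log2 difference of -0.03; 0 of 5 passed, or had an unadjusted p under 0.05 in limma. Pdpn was at 0.21 (SE 0.18), Mmrn1 at -0.03 (SE 0.11), Flt4 highest at 0.41 (SE 0.35) and Tbx1 lowest at -0.14 (SE 0.12). Adjacent means of Pdpn, Mmrn1 and Tbx1 (4.33, 3.40 and 4.31) were below the median of all gene values (4.455). Lyve1, also in the list, was counted with the sinusoidal endothelial markers too, so the list is a coarse gauge of lymphatic cells.

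Onecut1 was the most variable factor among livers. Adjacent livers read 9.45, 6.20, 7.78, 6.98 and 6.95 in mice 81, 121, 123, 124 and 1931, and controls 7.40, 8.20 and 7.38. Tumours read 7.80 (mouse 81), 6.60 (90), 6.96 (93), 6.14 (123) and 6.37 (124), and those of mouse 121 read 7.08, 7.11 and 6.51. Mouse 123's tumour was the lowest array of all and adjacent liver 81 the highest. The difference from adjacent liver was -0.68 (SE 0.46, 95% interval -1.66 to 0.31, adjusted p = 0.532), and it was -0.18 without adjacent liver 81. From control it was -0.86 (SE 0.54, 95% interval -2.02 to 0.29, adjusted p = 0.542). Without adjacent liver 121 the difference from adjacent liver was -0.99.

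Adjacent liver and control liver were also compared, to ask whether the factors differed in the liver outside the tumours. Of the 9, 0 had an adjusted p under 0.05 (limma; 0% of all genes passed) and 0 had an unadjusted p under 0.05, against 4.55% of all genes. The differences ran from -0.47 for Foxa3 (SE 0.40, 95% interval -1.32 to 0.38) to 0.47 for Nr1i3 (SE 0.63, 95% interval -0.88 to 1.81). Without control 11 these were -0.21 and 0.10, and without control 12 that of Nr1i3 was 0.79. Leaving out control 10 moved Hnf4a from -0.14 to -0.23, Cebpa from -0.09 to -0.30, Prox1 from -0.03 to -0.26, Onecut1 from -0.19 to -0.32 and Nr1i2 from 0.27 to 0.14, and turned Foxa1 from 0.07 to -0.15 and Foxa2 from 0.10 to -0.16. Without control 11 the difference was 0.09 for Onecut1 and 0.21 for Prox1. In the full comparison 5 of 9 had a lower mean in adjacent liver, against 51.5% of genes. The groups did not overlap for 0 of 9, against 4.22% of genes. Between tumour and control 7 of 9 had a lower mean, against 57.8% of genes, and 0 of 9 passed, against 0.0258%. At an unadjusted p under 0.05 Cebpa was lower, 1 of 9, against 6.88% of all genes lower and 12.5% in either direction, and the groups did not overlap for 0 of 9, against 5.18%. The comparisons with tumour share the tumour arrays and those with control share the control arrays, so their values are not independent. The order of the group means was control, adjacent, tumour for Hnf4a, Cebpa, Prox1 and Onecut1, and adjacent, control, tumour for Foxa1, Foxa2 and Nr1i3. For Foxa3 it was tumour, control, adjacent, and for Nr1i2 adjacent, tumour, control. No neighbours in these orders differed past the threshold.

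Which factors lay outside the range of the 8 livers was listed for each tumour, beside the share of all genes that did so on the same array. Mouse 81's tumour had 4 of 9 below the lowest liver, Hnf4a, Cebpa, Foxa1 and Nr1i3, where 19.5% of all genes were below. Mouse 90's had 3 below, Cebpa, Foxa1 and Prox1 (20.7% of genes), and Foxa3 above the highest liver (17.2% of genes). That of mouse 123 had Cebpa and Onecut1 below (20.0% of genes), and tumour 3 of mouse 121 had Cebpa, Foxa2 and Nr1i3 below (12.8%). The tumours of mice 93 and 124 and the other tumours of mouse 121 had 1 each below: Hnf4a (10.7%) in mouse 93, Foxa3 (14.3%) in mouse 124, and Cebpa in the unnumbered tumour (17.9%) and tumour 2 (18.7%) of mouse 121. A count of 1 of 9, or of 2 of 9 in mouse 123, is near the share of all genes. The gap was under 0.1 log2 units for Foxa1 in mouse 90, for Hnf4a in mice 81 and 93, for Cebpa in mouse 90, for Onecut1 in mouse 123 (6.14, lowest liver 6.20) and for Foxa3 in mouse 124 (6.41, lowest liver 6.49). Counted by factor, Hnf4a, Foxa1 and Nr1i3 were below the livers in 2 of 8 tumours, which 34.7% of all genes matched or passed, and Foxa2, Foxa3, Prox1 and Onecut1 in 1 (58.2% of genes). Foxa3 and Nr1i2 were above them in 1 (46.7% of genes). No factor was below the livers in every tumour.

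**Figure D3:**
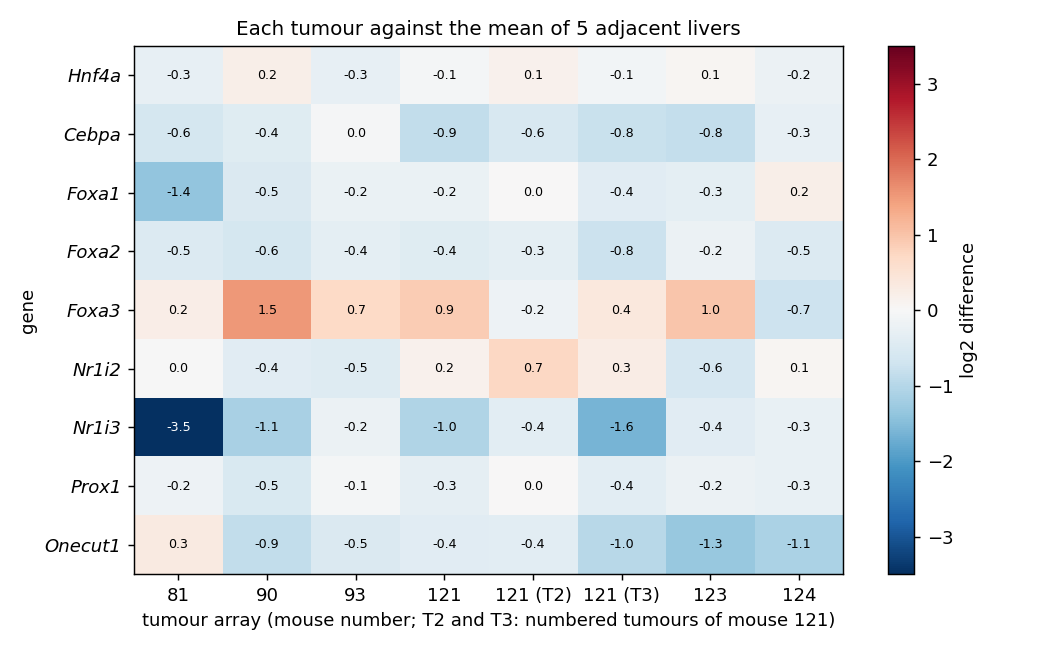
Log2 difference between each of the 8 tumour arrays (columns, by mouse number; T2 and T3 are the numbered tumours of mouse 121) and the mean of the 5 adjacent livers, for the 9 factors (rows); blue is lower and red higher, with the value printed in each cell. Cebpa, Foxa2 and Nr1i3 are below 0 in every column, Foxa3 is mostly above 0, and the strongest value is Nr1i3 in the tumour of mouse 81 (-3.48).

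Set against the liver of the same animal, the tumours differed in how many factors were lower. In mouse 81 all 9 of 9 were lower in the tumour, with a median of -0.80, where 52.1% of genes were lower. Adjacent liver 81 was the highest adjacent liver for 7 of the 9 factors, all but Foxa2 and Prox1, and its mean over the 9, 8.55, was the highest of the 16 arrays (the next was control 12, at 8.17). Against the mean of the 8 livers, 6 of 9 were lower in the tumour of mouse 81. In mouse 124 it was 6 of 9 (median -0.25, 52.2% of genes), in mouse 123 5 of 9 (median -0.43, 57.0%) and in mouse 121 3 of 9 (median 0.08, 50.1%). The paired difference of Foxa3 was 1.62 in mouse 123 and -1.06 in mouse 124. The range over the 3 tumours of mouse 121 was smaller than that over the 6 tumour mice for 8 of 9 factors. The exception was Foxa2 (range 0.43 within the mouse and 0.39 over 6 mice). The range within the mouse was 0.30 for Cebpa against 0.81 over the 6 mice, and 1.26 for Nr1i3 against 3.26. The medians over all genes were 0.35 and 0.58. The comparison sets 3 arrays of 1 animal against 6 mice, and a range widens with the number of values. The count therefore cannot tell whether tumours of 1 mouse are more alike.

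The genes that CAR and PXR switch on were followed in the same tumours, as lists of textbook targets that share members. Of 15 CAR targets 0 passed between tumour and adjacent liver (limma, 0.155% of all genes), with a median of -0.23. A lower mean was found for 9 of the 15, near the 56.0% of all genes with one. At an unadjusted p under 0.05 in limma, 1 was higher and 2 lower, where 15.3% of all genes differed and 8.32% were lower. Cyp2b10, the classic CAR target, was at -0.16 (SE 0.48), Cyp2b9, a related P450, was highest at 2.40 (SE 1.09), and Cyp2c37, an arachidonic acid hydroxylase, was lowest at -2.06 (SE 0.70); Cyp2c29 was at -1.54 (SE 0.51). Of 16 PXR targets 0 passed, with a median of -0.38 and 12 lower means, and 1 was higher and 3 lower at an unadjusted p under 0.05. Cyp3a11, the main PXR-inducible P450, was at -0.53 (SE 0.43), Cyp3a13 at -0.42 (SE 0.18), Cyp3a25 at -0.45 (SE 0.26) and Abcb1a, a drug efflux pump, was highest at 1.22 (SE 0.37). Against control the medians were -0.15 and -0.27, and between adjacent and control liver 0.09 and 0.11, with 0 past the threshold in each; at an unadjusted p under 0.05, 3 of 15 CAR and 2 of 16 PXR targets differed from control in tumours, near the 12.5% of all genes, and 0 in adjacent liver, against 4.55% of all genes.

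Single tumours lay on both sides of the livers. In the tumour of mouse 81, where Nr1i3 was at 5.93, 7 of the 15 CAR targets were below the lowest liver and 3 above the highest, against 19.5% and 16.2% of all genes on that array. Cyp2c37 read 4.52 there against 8.90 to 10.56 in the livers, Cyp2c29 7.37 against 10.85 to 11.59, Cyp3a11 9.08 against 11.69 to 12.20, and Cyp1a2 7.96 against 10.66 to 11.36. Those above were Gstm3 (10.80, livers 8.60 to 10.64), Gadd45b (5.35, livers 4.09 to 5.32) and Aldh1a1 (11.81, livers 11.05 to 11.80). Secreted proteins and other hepatocyte markers were also low in that tumour, 7 of 9 below the livers with Alb (albumin) at 11.89 against 12.32 to 12.48, and the mean of the 9 markers was 11.40; their part in the low receptor value was not tested. In mouse 90 the tumour had 7 CAR targets below the livers as well, against 20.7% of all genes, with Nr1i3 at 8.28, inside the liver range. It had 2 above them, Cyp2b9 and Gadd45b, against 17.2% of all genes.

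Tumour 2 of mouse 121 showed the reverse. It had 8 of 15 CAR targets above the highest liver and 0 below, against 14.2% and 18.7% of all genes on that array. Cyp2b10 read 10.50 there, whereas the other 15 arrays lay between 3.65 and 6.54, and the other tumours of the same mouse read 4.07 and 4.11. Cyp2c37 read 11.20, Cyp2c55 9.61, Cyp3a11 12.55 and the epoxide hydrolase gene Ephx1 11.28, each the highest of the 16 arrays. On this array Nr1i2 was the highest of all (8.66) while Nr1i3, at 9.04, was within the range of the livers (8.22 to 10.21). The tumour of mouse 124 had 7 of 15 CAR targets above and 3 below, and 7 of 16 PXR targets above and 2 below, against 11.8% and 14.3% of all genes. Cyp1a2 read 12.22 there, Gstm3 11.70 and Ephx1 11.12, and Cyp2b10 was among those below, with Nr1i3 at 9.15. The genes given for these single tumours, from mouse 81 on, were picked after their values were seen, and a single array has no replicate.

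**Figure D4:**
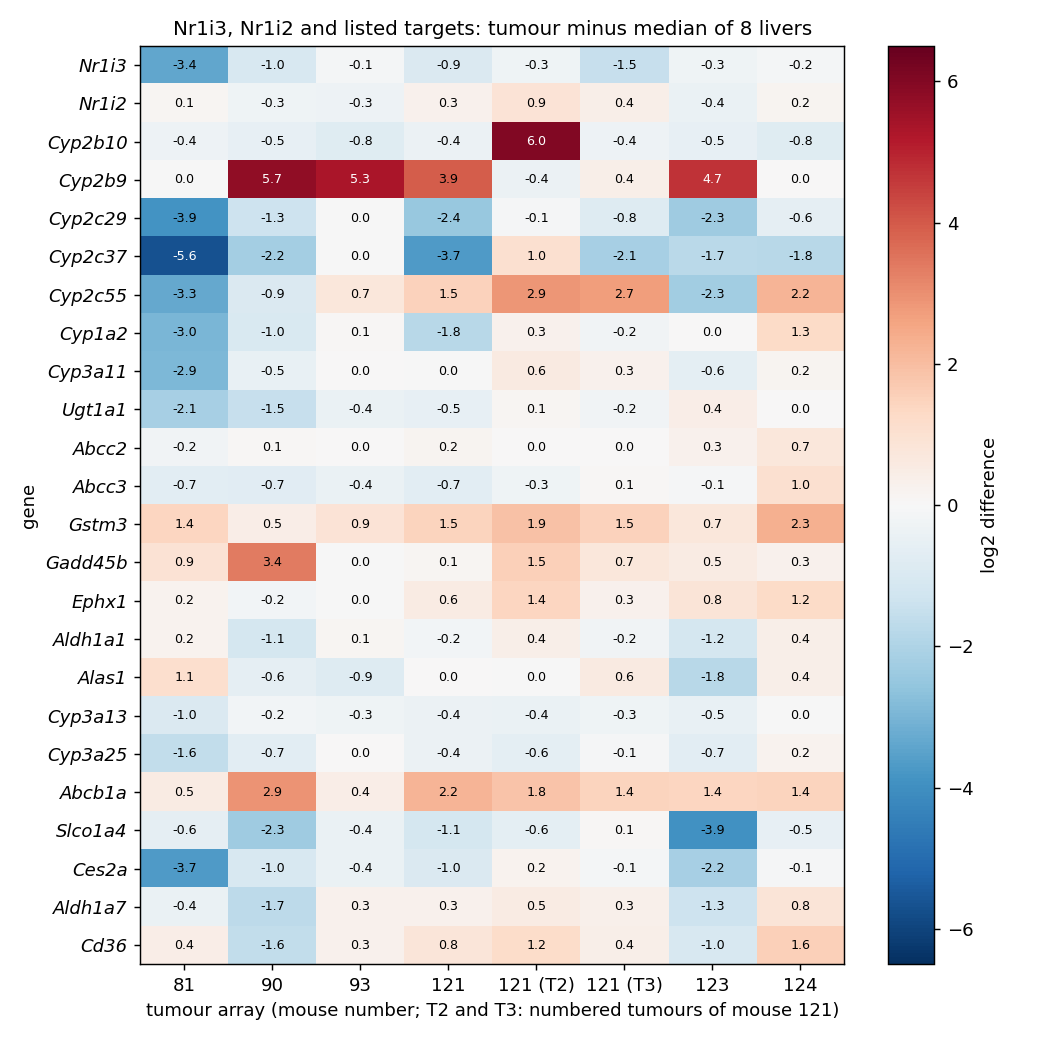
Log2 difference between each tumour array (columns, by mouse number) and the median of the 8 livers, for Nr1i3, Nr1i2 and the measured CAR and PXR targets (rows). The tumour of mouse 81 is blue for Nr1i3 and many P450 genes, and tumour 2 of mouse 121 stands out for Cyp2b10 (10.50, against 3.65 to 6.54 elsewhere).

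Targets of the other factors were described in the same way, and 0 passed in any of these lists. Of all genes, 0.155% passed between tumour and adjacent liver and 56.0% had a lower mean in tumours. At an unadjusted p under 0.05 in limma, 8.32% of all genes were lower and 15.3% differed in either direction. Of 16 HNF4A targets all 16 had a lower mean in tumours than in adjacent liver (median -0.26), and 6 were lower at an unadjusted p under 0.05, where Hnf4a itself differed by -0.08. The means of 3 apolipoprotein genes were near their liver level, with Apoa1 at -0.03 (SE 0.13), Apoa2 at -0.06 (SE 0.08) and Apob at -0.06 (SE 0.11). These means lay between 11.72 and 12.74, near the series maximum of 12.852, and whether changes are compressed there was not tested. In mouse 81 the tumour had Apoa1 (11.50) and Apob (11.29) below the livers, and in mouse 123 both were above. Apoc3 was below the livers in mice 90 and 123 and in the unnumbered tumour and tumour 2 of mouse 121. Cyp8b1, the sterol 12-hydroxylase, was lowest at -2.19 (SE 0.77). Of 11 C/EBPalpha targets 9 had a lower mean (median -0.39), and 5 were lower at an unadjusted p under 0.05. Alb was at 0.01 (SE 0.11), Cps1, which opens the urea cycle, at -0.25 (SE 0.15), Arg1 at -0.39 (SE 0.27), G6pc, which releases glucose, was lowest at -1.43 (SE 0.65) and Ass1 highest at 0.40 (SE 0.36). Ass1 was dim, with means of 4.66 in adjacent liver and 5.06 in tumours, where the median of all gene values was 4.455. Whether its probe set reports the liver transcript was not tested. Of 9 FOXA targets 6 had a lower mean (median -0.36), and 4 were lower and 2 higher at an unadjusted p under 0.05, from Slc10a1, the bile acid importer, at -1.77 (SE 0.52) to Igfbp1, an IGF binding protein, at 1.65 (SE 0.70). Tat, which breaks down tyrosine, was at -0.36 (SE 0.26) and Pck1, a gluconeogenic enzyme, at -1.11 (SE 0.35). The 3 lists overlap: G6pc is in each, and Alb, Tat, Pck1 and Ttr are each in a pair of them.

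By array, the HNF4A and C/EBPalpha targets were lowest in the tumour of mouse 90 and close to liver in that of mouse 93. In mouse 90 the tumour had 13 of 16 HNF4A targets and 7 of 11 C/EBPalpha targets below the livers, where 20.7% of all genes were, with G6pc at 5.26 against 9.08 to 10.36. It also had 1 HNF4A target (Apoa1) and 2 C/EBPalpha targets (Alb and Ass1) above the highest liver, against 17.2% of all genes. Ass1 was dim there too, at 5.51 against 3.38 to 5.35 in the livers, so its place above them carries little weight. In mouse 93 the tumour had 1 of 16 and 1 of 11 below, against 10.7% of all genes, and 2 and 1 above, against 10.5%. Cebpa was at 8.63 in the first and at 9.02 in the second, and Hnf4a was at 10.10 and 9.59. These tumours are the lowest and the highest tumour arrays for both lists and were picked for that. Whether the targets followed Hnf4a or Cebpa over the tumours was not tested.

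Of 38 other transcription factors of liver, 0 passed between tumour and adjacent liver and 30 had a lower mean (median -0.20), against 56.0% of all genes. At an unadjusted p under 0.05, 8 of the 38 were lower and 1 higher, against 8.32% of all genes lower and 15.3% in either direction. Nr1h4, which encodes the bile acid receptor FXR, was lowest at -0.88 (SE 0.27, adjusted p = 0.145). It was below the livers (8.33 to 9.15) in 7 of 8 tumours, from 6.71 in mouse 123 to 8.23 in tumour 3 of mouse 121, and read 8.73 in mouse 93. All 3 tumours of mouse 121 are among the 7, and 2.69% of all genes were below in at least 6 of 8. Nr5a2 was at -0.42 (SE 0.16), Nr0b2, a repressor that FXR induces, at -0.67 (SE 0.48), and Atf5 was highest at 0.26 (SE 0.12). Against control the lowest was Gata4, an endoderm factor, at -0.90 (SE 0.22, adjusted p = 0.132). Of 13 cofactors and chaperones of nuclear receptors 0 passed, or had an unadjusted p under 0.05, and 10 had a lower mean (median -0.09). The coactivators Ppargc1a, Ppargc1b and Ncoa1 were at -0.50 (SE 0.70), -0.38 (SE 0.24) and -0.15 (SE 0.14). Nr0b2, which is in both lists, was lowest, and Ep300 was highest at 0.26 (SE 0.17). Ppargc1a went both ways. It read 9.53 in the tumour of mouse 81, above the livers (5.70 to 7.41). Below them were mouse 90 (4.26), mouse 123 (4.49) and tumour 2 of mouse 121 (5.01), and the other tumours were within their range.

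Genes of fetal liver and progenitor cells had higher means. Of 15, 14 had a higher mean in tumours than in adjacent liver (median 0.81) and 1 passed, Sox4, a factor of immature epithelium, which rose by 1.36 (SE 0.25, limma adjusted p = 0.0477), beside 0.155% of all genes. Fitted within the 4 mice that gave both tissues (a replicate block), its difference was 1.45 (SE 0.27, limma adjusted p = 0.137), not past the threshold. The limma adjusted p was also above it after quantile normalization (0.0537), with median centring (0.0512), with no intensity trend (0.0519) and with only the 2 groups compared (0.0907). It passed without the tumour of mouse 90 or 93 and missed the threshold with any other of the 14 mouse values left out, with differences from 1.19 to 1.55 and limma adjusted p from 0.0037 to 0.157. These fits of Sox4 were added after its value was seen. Afp was at 1.41 (SE 0.56), Dlk1 at 0.25 (SE 0.17), Gpc3 at 2.21 (SE 1.06), the imprinted RNA H19 was highest at 3.20 (SE 0.82) and Lin28b lowest at -0.14 (SE 0.08). In mouse 90 the tumour had 11 of the 15 above the livers, against 17.2% of all genes, and that of mouse 93 had 3, against 10.5%. All 6 proliferation markers had a higher mean in tumours than in adjacent liver (median 1.20), where 56.0% of all genes had a lower one. Mki67 was at 1.42 (SE 0.37), Top2a at 1.87 (SE 0.51), Cdk1 highest at 1.997 (SE 0.44) and Pcna lowest at 0.41 (SE 0.17). Among these markers 0 of 6 passed. At an unadjusted p under 0.05, 6 of 6 were higher, where 15.3% of all genes differed in either direction.

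Markers of other cells that could carry some of the factors were measured beside them, and 0 passed in any of these lists. Bile duct cells use Foxa1, Foxa2 and Onecut1. The 8 cholangiocyte markers had a median difference of 0.04 and array means between 4.09 and 5.16 in tumours and between 4.11 and 4.35 in adjacent livers, with Krt19 at -0.05 (SE 0.25), Krt7 at 0.33 (SE 0.31), Epcam at 0.26 (SE 0.19) Sox9 highest at 0.89 (SE 0.29) and Aqp1 lowest at -0.35 (SE 0.22). Myeloid cells use Cebpa, and the 10 macrophage and neutrophil markers had array means between 4.90 and 5.66 in tumours and 4.75 and 5.65 in adjacent livers, with a median difference of 0.18, Clec4f, a Kupffer cell lectin, at -1.85 (SE 0.59), Adgre1 at 0.24 (SE 0.53), Cd68 at 0.94 (SE 0.49) and S100a8 highest at 1.12 (SE 0.85). Stellate cell markers had a median of 0.52 over 11 genes, with Col1a1 highest at 1.25 (SE 0.38), Lrat lowest at -1.06 (SE 0.30), Des at -0.01 (SE 0.13) and Pdgfrb at 0.62 (SE 0.23). Their array means were 5.94 to 6.97 in tumours and 5.54 to 6.63 in adjacent livers. Endothelial markers went both ways around a median of -0.05 over 10 genes, from Clec4g at -2.41 (SE 0.68) to Cd34 at 1.67 (SE 0.33). Stab1 was at 0.07 (SE 0.15) and Stab2 at -1.31 (SE 0.39), and array means were 5.67 to 6.80 in tumours and 6.31 to 6.62 in adjacent livers. Lymphoid markers (7 genes) had a median of 0.01, from Ms4a1 at -0.15 (SE 0.09) to Cd79a at 0.17 (SE 0.12), with Cd3e at 0.04 (SE 0.26). Pancreas and gut markers (9 genes) had a median of 0.08, from Ins2 at -0.15 (SE 0.08) to Vil1 at 1.14 (SE 0.56), with Pdx1 at 0.08 (SE 0.14). The hepatocyte list (median -0.08) ran from Cyp2e1, a pericentral P450, at -1.38 (SE 0.52) to Ahsg at 0.16 (SE 0.09). At an unadjusted p under 0.05, where 15.3% of all genes differed, 7 of the 11 stellate and 6 of the 10 endothelial markers did. The count was 1 each for the cholangiocyte, myeloid, hepatocyte and pancreas and gut markers, and 0 for the lymphoid ones. The part of these cells in the values of the 9 factors was not tested.

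Genes whose pattern was most like each factor were taken as the highest Pearson r over the 14 mouse values, which share the contrast of tumour and liver. Each r is the highest over all named genes and is given as a description. For Hnf4a they were Krba1 (r = 0.89) and Cxxc1 (0.88), for Cebpa Igfbp4 (0.92) and Slc25a38 (0.92), and for Foxa1 Pla2g3 (0.93) and the clock-driven factor Hlf (0.92). They were Vmn1r68 and Rasgef1a for Foxa2 (both 0.89), Uhrf2 (0.91) and Cpsf7 (0.89) for Foxa3, and Mmp7 (0.84) and Fmo5 (0.83) for Nr1i2. Nr1i3 had the P450 gene Cyp2d40 (0.94) and Tapt1 (0.92), Prox1 had Txlng (0.92) and Mtif3 (0.90), and Onecut1 had Itga7 (0.93) and H2-M9 (0.91). Among the 9 factors themselves the closest pair was Foxa1 and Nr1i3, at r = 0.89 over the 14 values and 0.74 without the tumour of mouse 81. Cebpa was nearest to Foxa2 (0.70) and Foxa1 (0.66).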

How the data were processed

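Total RNA of liver or tumour tissue was amplified, labelled with biotin and hybridised to 1-colour arrays, 1 per sample, per the labels' protocols. The deposited values are log2 expression values made by the authors; per the submitters' processing notes RMA and Partek were used (no version or order). Neither the chip nor a build was stated in the labels used here. RMA equalises probe intensities across the arrays and compresses changes of dim probe sets. Of 24479 probe sets 23281 had 1 symbol, 0 several and 1198 none; for symbols with more than 1 probe set the brighter was kept, leaving 23279 genes. Samples were grouped by title. The 3 tumours of mouse 121 were averaged, and control, adjacent and tumour mice (3, 5 and 6) entered 1 limma model with an intensity trend (limma 3.58.1 under R 4.3.3); Benjamini-Hochberg adjustment ran over all genes, and an adjusted p under 0.05 passed. SE is that of the moderated fit. The fit was tested on simulated data. The number of arrays limits the precision, and the labels name no batch.

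The members and the gene lists were chosen with earlier results of these data known. Of 234 entries in 17 other lists 208 were measured under that symbol; the others were not analysed here. Named genes of each list are those past the threshold, the first 3 measured and the extremes in each direction; exceptions are marked. Mouse numbers in the titles pair tumour and adjacent liver in 4 mice (same animal); correlations of their deviations from the group means were 0.0349 to 0.0998. Alternatives were other scalings, a filter on dim genes, weights, blocks and each mouse left out. Promoter motifs and the counts of list genes outside the liver range were added after values had been seen.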

Additional observations from a re-analysis of the deposited data

Results flagged for a closer look

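Nr1i3 in the tumour of mouse 81, at a log2 value of 5.93, lay far from the other 5 tumour mice, the nearest of which was at 8.28; the gap was 0.72 of the group's range, above the critical value of 0.625. In all, 18 groups of values (9 factors in adjacent liver and in tumours) were checked this way, and chance alone marks about 1 group in 20. The labels name no batch, and the cause was not tested.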

How the results depend on the processing

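The count of factors past the threshold was 0 in each comparison in the main setting and in every alternative: quantile normalization, median centring, the dim-gene filter, no intensity trend, array weights, only the 2 groups compared, 8 separate tumours, the unnumbered tumour of mouse 121 only, the mouse as a replicate block (fixed in the 4 paired mice, where the count was 0, or random, also 0) and each of 14 mouse values left out. The replicate block thus changed no call of a factor; the fixed block ended that of Sox4. The smallest adjusted p of any factor was that of Cebpa between tumour and adjacent liver, 0.0741 without the tumour of mouse 93 and 0.0970 with the random block, in a range up to 0.353. Differences near 0 changed sign: Hnf4a between tumour and adjacent liver was 0.0064 after quantile normalization, and Foxa3 between tumour and control was -0.0002 with 8 separate tumours. With each mouse left out, tumour minus control ran from -0.16 to 0.29 for Foxa3 and from -0.0311 to 0.18 for Nr1i2. Adjacent minus control ran from -0.30 to 0.0606 for Cebpa, -0.15 to 0.34 for Foxa1, -0.16 to 0.27 for Foxa2, -0.26 to 0.21 for Prox1 and -0.68 to 0.13 for Onecut1. The background count of genes past the threshold was 36 between tumour and adjacent liver, 0 with the fixed block, 206 with the random one, 181 without dim genes and 743 without the tumour of mouse 93; between tumour and control it was 6, in a range of 0 to 242, and between adjacent and control 0, and 1 without control 10 or control 11. The number of mice limits every difference, and an RMA value gives no detection limit.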

Other observations

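The 4 tumour arrays with the highest Foxa3 were also those with the highest Cyp2b9, a P450 that is female-predominant in mouse liver. In mice 90, 123, 121 (unnumbered) and 93 Foxa3 read 8.66, 8.11, 8.04 and 7.84 and Cyp2b9 read 9.50, 8.46, 7.68 and 9.06, while the other 4 tumours had Foxa3 between 6.41 and 7.50 and Cyp2b9 between 3.39 and 4.16. The pattern did not extend to liver, where control 11 had Foxa3 at 8.12 and Cyp2b9 at 3.15, and control 10 had 7.23 and 6.54. It was seen after the values were known and was not tested.

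Tumours of mouse 121 (unnumbered, 2 and 3) differed widely in the CAR target Cyp2b10 (4.07, 10.50 and 4.11) and in Cyp2c37 (6.48, 11.20 and 8.02). In the same order Nr1i3 read 8.37, 9.04 and 7.78, Cebpa 8.18, 8.48 and 8.27, and Nr1i2 8.08, 8.66 and 8.19. Tumour 2 was the highest of them for all of these genes. The values are single arrays of 1 mouse, and a relation between factors and targets was not tested.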
